A study of Homo sapiens with 24 samples.

Results

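The long arm of chromosome 15 carries an extra piece in HAP1, a near-haploid human cell line derived from the KBM-7 leukaemia line. Here the piece was taken by position, as the 1 kb bins of chromosome 15 from 60 Mb to 90 Mb (chr15:60000001-90000000, GRCh38). This gave 29569 bins of the 2835235 in the deposited table (1.04%), of 30000 that the interval could hold. The rest of chromosome 15, from 23 Mb to 60 Mb and from 90 Mb to the end, served as the reference within each library and had 47199 bins. The rule used position and no measured value, but the interval was chosen with earlier results of these data known.

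OG-seq was run on HAP1 cells of 4 genotypes that shared one culture medium, with no treatment named. These were WT, MUTYH-/-, OGG1-/- and the double knockout (DKO) of both glycosylases. The knockouts were made with CRISPR-Cas9, each genotype was studied as 2 clones, and the DKO clones were derived from an OGG1-/- clone, so that they share its history. The table has 3 columns per genotype, numbered 1 to 3, and it was not possible to say which clone or experiment a column holds. By the labels, 2 of the 3 OG libraries of each genotype came from the same clone, so they are not independent. OGG1 and MUTYH lie on other chromosomes, and their small insertions and deletions cannot be seen in 1 kb bins, so the genotypes were not checked here.

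8-oxoguanine (OG) is an oxidised guanine that pairs with adenine as well as with cytosine. OGG1 removes OG opposite cytosine, and MUTYH removes the adenine that was put in opposite OG. OG-seq attaches biotin to OG in fragmented DNA and pulls the fragments down, and input DNA is sequenced beside it. A segment present in 1 additional copy in a haploid genome gives 2 DNA molecules per cell where its surroundings give 1, in the input and in the pull-down alike. HAP1 has long been known to carry such a fragment of chromosome 15, inserted into chromosome 19. Subtraction of input, as in the deposited values, keeps such a difference, whereas a ratio of OG to input removes it.

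Each deposited value is the number of OG reads in a bin minus its scaled input reads, and it lies below 0 where the scaled input is higher. From these values the whole numbers of OG and input reads were solved for all but 0 to 8 bins per column. The 2 input factors that this needs per column were inferred from the values and are not stated in the labels. The columns held 59601849 to 113915679 OG reads (21.0 to 40.2 per bin) and 78621690 to 101608128 input reads (27.7 to 35.8 per bin), so that single bins carry a large counting error and means over many bins a small one. WT had the lowest mean of OG reads per bin on the rest of chromosome 15, 25 ± 4.92 (SD, n = 3). The means were 32.1 ± 6.44 in MUTYH-/-, 35.7 ± 4.01 in OGG1-/- and 37.8 ± 3.43 in DKO, and single columns of WT and MUTYH-/- overlapped. Values in reads are therefore given beside those of the rest of the chromosome.

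The sum of OG and input reads rose and fell within 1 bin of the same places in every column. It set the limits of the duplicated DNA more sharply than the interval that defined it. The left limit is in the gene RORA, which encodes a nuclear receptor. It is marked by the following 200 bases of GRCh38 (plus strand), in which capitals mark the first 100 bases counted as duplicated.
Left limit, chr15:60810901-60811100: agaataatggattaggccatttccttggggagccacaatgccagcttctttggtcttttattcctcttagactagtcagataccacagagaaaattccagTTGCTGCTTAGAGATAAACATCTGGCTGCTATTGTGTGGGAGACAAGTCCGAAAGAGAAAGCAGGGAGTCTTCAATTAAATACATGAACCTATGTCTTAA
The right limit is intergenic, beyond POLG. In the following 200 bases (plus strand) capitals mark the last 100 bases counted as duplicated.
Right limit, chr15:89349901-89350100: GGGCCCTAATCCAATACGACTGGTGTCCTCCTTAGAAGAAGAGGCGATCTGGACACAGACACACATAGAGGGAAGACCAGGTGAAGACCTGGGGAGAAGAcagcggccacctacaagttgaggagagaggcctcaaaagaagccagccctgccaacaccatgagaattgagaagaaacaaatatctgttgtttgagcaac
Both are reference sequence at the nearest 1 kb step. The joined sequence of the rearrangement was not analysed here.

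In 100 kb windows, the split that best separated a low from a high mean was at 60.8 Mb on the left and at 89.4 Mb on the right, for input reads and for OG reads, in 12 of 12 columns. The deposited values placed the left limit at 60.8 Mb in 7 columns and as far in as 62.2 Mb in the others. On the right they ranged from 89.3 to 91.1 Mb, with a median of 89.45 Mb. Searched over 2 Mb to either side in place of 5 Mb, the values gave 60.8 Mb in 12 of 12 columns and 89.3 to 89.5 Mb on the right.

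At steps of 1 kb, OG and input reads were added together. The first duplicated base on the left was 60811001, where these reads per bin, summed over all columns, went from 831.6 to 1574. Of the 12 columns, 11 gave the same bin, and the remaining 1 the next. On the right, single-copy DNA began at 89350001 in 12 of 12 columns, where the summed reads went from 1764 to 904.5 per bin. The DNA between these limits is 28.54 Mb long and holds 28108 bins. The interval taken by position thus also included 811 kb on the left and 650 kb on the right at the level of the surroundings.

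Counted over the 10 bins to each side of the left limit, input reads per bin were 1.02 times the mean of the rest of chromosome 15 outside and 1.81 times inside. The ratio of inside to outside was 1.79 ± 0.123 (SD, n = 12). On the right the levels were 2.18 inside and 1.19 outside, with a ratio of 1.84 ± 0.193. Input and OG reads changed level together at both limits.

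**Figure D1:**
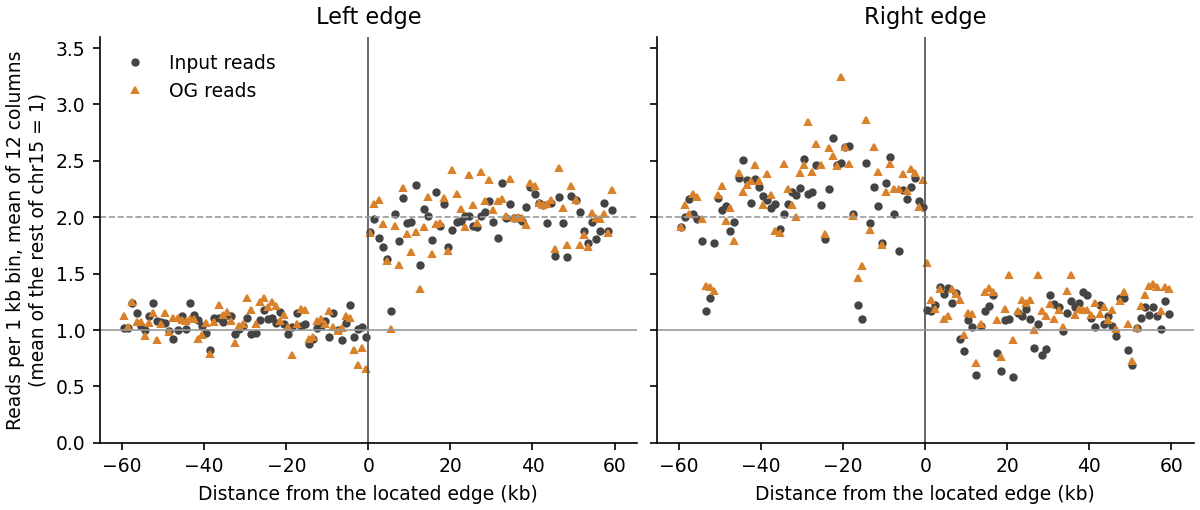
Reads per 1 kb bin within 60 kb of the left and right limits, as the mean of 12 columns over the mean of the rest of chromosome 15 (linear axis), against distance from the limit in kb. Circles are input reads and triangles OG reads, and the lines mark levels of 1 and 2. Both kinds of reads change level at distance 0, from about 1 to about 2 on the left and back on the right.

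The left limit lies within an intron of RORA (chr15:60488284-61229302, minus strand, GENCODE 44). Whether any copy of the gene is interrupted was not tested. The part from 60488284 to 60811000 had an input level of 1.08 ± 0.0183 (SD, n = 12; 322 bins) relative to the rest of the chromosome. The part from 60811001 to 61229302 had 1.89 ± 0.0197 (418 bins). No column overlapped between the parts, with 1.05 to 1.1 on one side and 1.86 to 1.92 on the other. Since the gene is read from the minus strand, its promoter end lies in the duplicated part and its 3′ end outside. The only other gene in the 100 kb window of that limit, the long non-coding RNA ENSG00000273792, is inside.

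At the right limit, POLG (chr15:89305198-89334861, minus strand), the catalytic subunit of the mitochondrial DNA polymerase, lies inside and ends 15139 bp before it. The overlapping POLGARF and MIR6766 are inside too. FANCI, part of the complex that is ubiquitinated in the Fanconi anaemia pathway, ends 32739 bp before the limit. POLG-DT, a divergent transcript of POLG, is the nearest gene on the inner side, at 13839 bp. On the outer side, ENSG00000287717 begins 11157 bp away, MIR9-3HG, the host gene of a microRNA of the miR-9 family, 11579 bp away, and MIR9-3 itself 18017 bp away.

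Relative to the rest of chromosome 15, the segment had 2.03 times the input reads per bin as a mean of 12 columns, 2.08 times the OG reads and 2.23 times the deposited value. For input the ratio was 2.043, 2.055 and 2.05 in WT columns 1 to 3, and 2.027, 2.014 and 2.03 in MUTYH-/-. It was 2.05, 2.023 and 2.016 in OGG1-/- and 2.006, 2 and 1.997 in DKO. Every column lay within 3% of a doubling, and the 4 genotypes lay close together.

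For OG reads the ratio was 2.113, 2.097 and 2.11 in WT, 2.115, 2.066 and 2.068 in MUTYH-/-, 2.109, 2.127 and 2.079 in OGG1-/-, and 1.986, 2.073 and 2.048 in DKO. For the deposited value it was 2.254, 2.185 and 2.267 in WT, 2.38, 2.194 and 2.17 in MUTYH-/-, 2.276, 2.387 and 2.27 in OGG1-/-, and 1.924, 2.319 and 2.193 in DKO. The value spread most between columns, and DKO column 1 was the lowest in both. The ratio was above 1 in 12 of 12 columns for each measure (exact two-sided sign-flip permutation test of the log2 ratio, p = 0.000488, the smallest that 12 columns allow).

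In reads, WT had a mean value of 17.2 ± 1.67 (SD, n = 3) per segment bin, MUTYH-/- 19.5 ± 3.32, OGG1-/- 21.7 ± 0.605 and DKO 20.1 ± 3.25. On the rest of the chromosome it was 7.67 ± 0.672, 8.64 ± 1.02, 9.38 ± 0.425 and 9.33 ± 0.813. The single-copy bins inside the interval but outside the located limits were near the latter, with 8.35 ± 1.02 on the left and 10.7 ± 0.909 on the right in WT.

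The segment is richer in G and C than its surroundings, with a mean GC content of 43.7% against 41.1% on the rest of the chromosome, and GC content moved with the ratios. Between the limits, the ratio to the rest of the chromosome was 2.08 for input, 2.13 for OG reads and 2.29 for the value. When bins of the rest were weighted to the GC content of the bins between the limits, these became 2.033 for input (2.008 to 2.049 over 12 columns), 2.033 for OG reads (1.957 to 2.053) and 2.029 for the value (1.812 to 2.078). As means of 12 columns, the 3 measures then met at the same level. This weighting was chosen after seeing the data.

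OG reads per input read were slightly higher in the segment than on the rest of the chromosome, with a log2 difference of 0.040 ± 0.021 (SD, n = 12), above 0 in 11 of 12 columns (exact two-sided sign-flip permutation test, p = 0.000977). DKO column 1 was the exception, with -0.015. With the rest of the chromosome weighted to the GC content of the segment, the mean difference was -0.00033, with a range of -0.036 to 0.0089 (exact sign-flip permutation p = 0.977). At matched GC content, a difference in OG per molecule of DNA was thus not detectable.

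**Figure D2:**
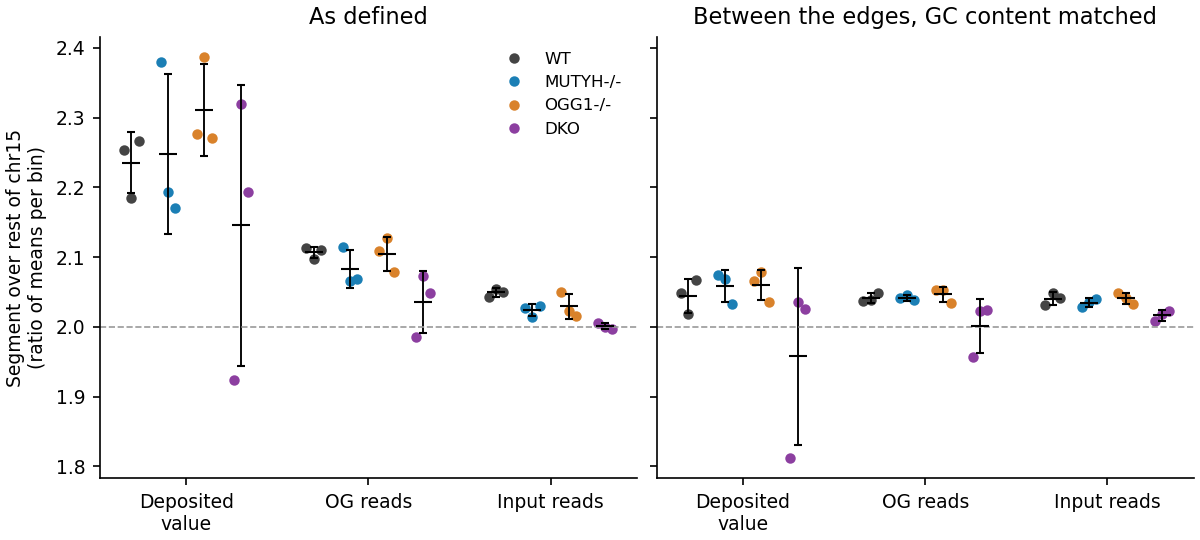
Segment over rest of chromosome 15 as a ratio of means per bin (linear axis that starts above 0) for the deposited value, OG reads and input reads. Points are columns, coloured by genotype, with the mean and SD of 3 columns per genotype and a dashed line at 2. On the left, with the segment as defined, the value lies above OG reads and these above input reads. On the right, between the located limits and at matched GC content, the 3 measures lie together near 2.03.

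Within classes of equal GC content, the value between the limits was 1.98 to 2.10 times that of the rest of the chromosome, from 30% to 65% GC. It rose from 9.39 reads per bin at 30 to 35% GC to 30.1 at 55 to 60% inside, and from 4.77 to 14.3 outside. A GC-rich single-copy bin therefore had a higher value than a GC-poor duplicated bin. Input per bin showed the same ratio with less spread, for example 2.04 ± 0.0132 (SD, n = 12) at 30 to 35% GC, where the value gave 1.98 ± 0.148.

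**Figure D3:**
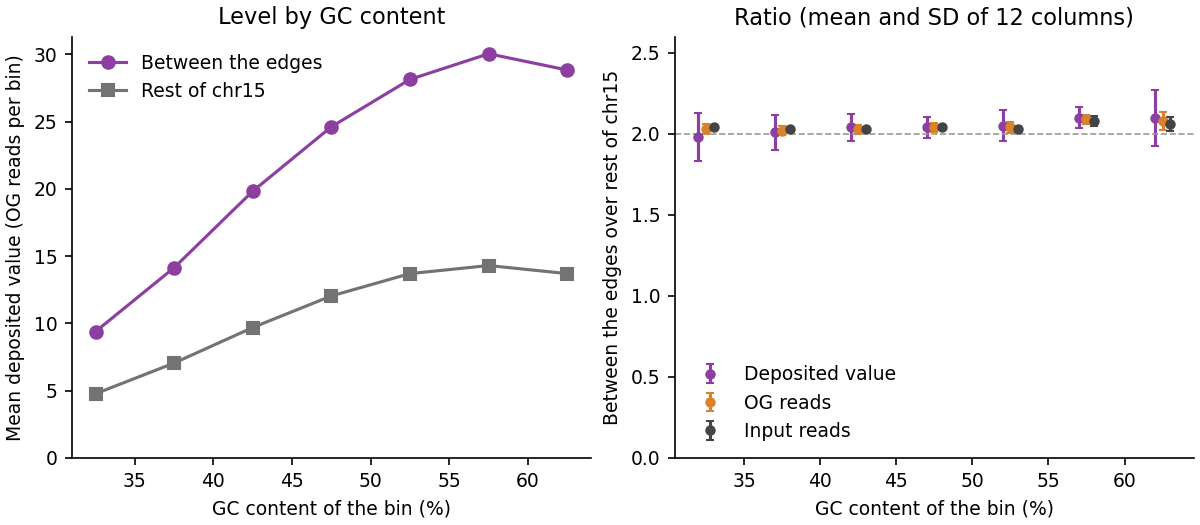
Left, mean deposited value in OG reads per bin against GC content in percent, between the limits and on the rest of chromosome 15, in classes of 5 points. Right, the ratio of the former to the latter for the value, OG reads and input reads, as mean and SD of 12 columns. Both levels rise up to 55 to 60% GC, from 9.39 to 30.1 and from 4.77 to 14.3 reads, while the ratio stays near 2.

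Along the segment, the duplication was even and the deposited value was not. Of the 292 windows of 100 kb with at least 90 bins, 276 lay wholly between the limits. All 276 had a higher mean input than any of the 467 windows of the rest of the chromosome, and 272 of them did so in every column. The lowest window inside stood at 1.32 and the highest outside at 1.21. For the deposited value 213 of the 276 (77.2%) were above every window of the rest, and 125 in every column. The coefficient of variation of input over windows was 8.62% inside and 9.05% outside, and that of the value 23.1% inside and 24.2% outside. Across the 276 windows the value went with GC content (Pearson's r = 0.926) more closely than input did (r = 0.656). Windows of 1 chromosome share their libraries and their base composition, so that these correlations are a description.

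**Figure D4:**
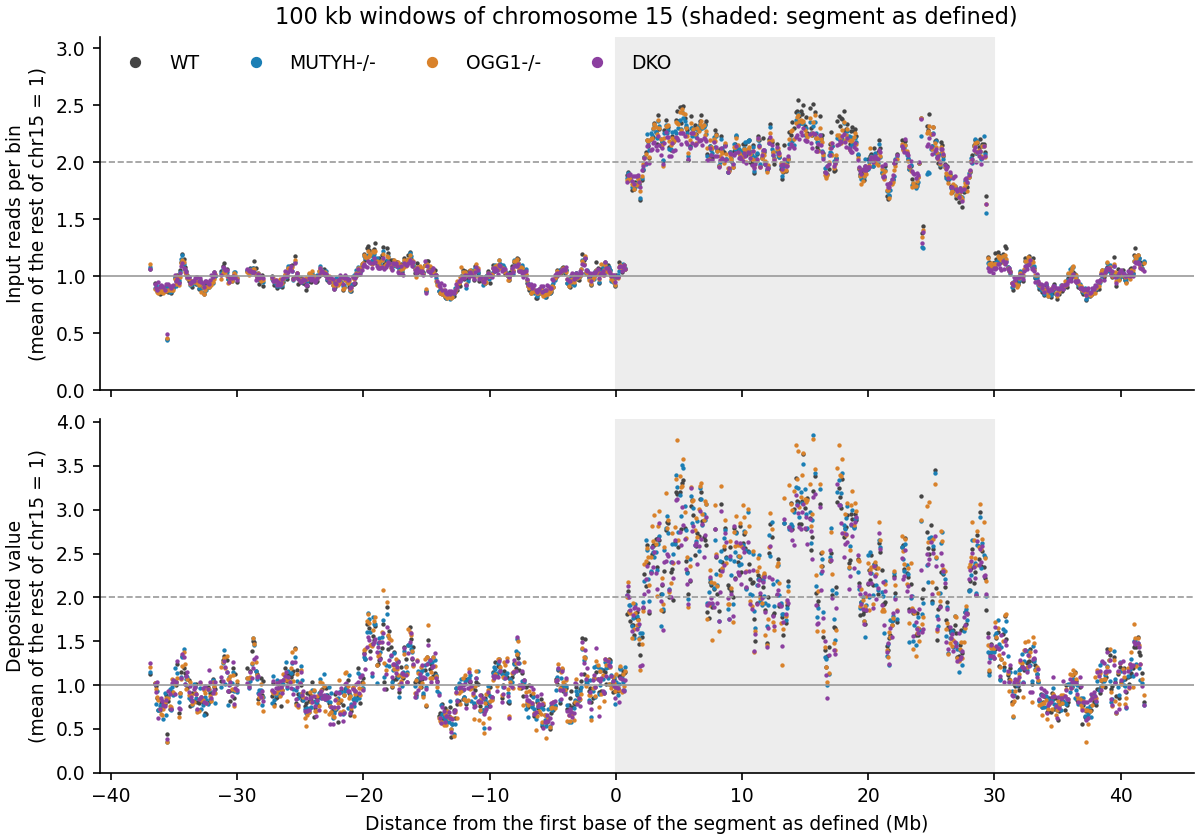
Input reads per bin (top) and deposited value (bottom) in 100 kb windows along chromosome 15, over the mean of the rest of the chromosome, against distance from the first base of the segment in Mb. Points are means of 3 columns per genotype, the shaded band is the segment as defined, and the lines mark 1 and 2. Input forms a plateau near 2 that starts inside the left border of the band, whereas the value ranges from below 1.5 to above 3 within it.

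The windows with the highest value were GC-rich, with 53.1 to 53.2% GC. The window at 75.6 Mb, with SNUPN, IMP3, SNX33 and CSPG4, had 30.8 reads per bin as a mean of 12 columns, with a range of 21.2 to 43.2. That at 74.8 Mb, with CSK, a kinase that inhibits Src family kinases, and 6 further genes, had 30.4 reads (21.2 to 40.6). The window at 74.2 Mb, with STRA6, a receptor in retinol uptake, and CCDC33, had 29.7 reads (22.7 to 37.4). Their input levels, at 2.35 to 2.38, were above the median of the windows between the limits (2.09).

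The lowest windows of the interval, at 60.1, 60.2 and 60.6 Mb, had 8.23, 8.41 and 8.71 reads and lay on the single-copy left side. Between the limits, the lowest were 3 neighbours in SCAPER, a large gene that encodes a protein that binds cyclin A. From 76.6 to 76.9 Mb they had 10.5, 9.14 and 11 reads at 36.1 to 38.2% GC. Their input level was 1.89, 1.93 and 2. The DNA was thus duplicated there, while the value was near the mean of single-copy DNA.

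The segment raised the level of the whole chromosome. Input reads per bin of chromosome 15 stood at 1.42 times those of the other autosomes with the segment and at 1.02 times without it. With 1.04% of the bins, the segment held 2.10 to 2.17% of the input reads of a column, 2.10 to 2.25% of the OG reads and 2.04 to 2.53% of the summed value. Of the 282 windows of the genome in the top 1% by input, 262 (92.9%) were in the segment, and of the top 1% by deposited value 207 (73.4%).

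Protein-coding genes followed the located limits. Of the 258 that overlap the interval, 8 had no bin of their own in the table, and of the other 250, 234 lay between the limits, 1 (RORA) across the left one and 15 outside. Among genes of at least 5 bins, the 226 between the limits had a median input level of 2.17 relative to the rest of the chromosome, with a range of 1.28 to 2.57, and 224 were above 1.5. The exceptions were TLNRD1 (1.28) and MEX3B (1.38), short genes of 6 bins each with over 55% GC. The 14 genes of this size inside the interval but outside the limits had 0.992 to 1.15, and none of the 297 on the rest of the chromosome exceeded 1.29.

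Genes of DNA repair and replication in the interval numbered 13 in the list used here, of which 12 lay between the limits, with a median of the list of 2.21 for input and 2.65 for the value. TICRR, needed to start replication, was the exception at 1.08 ± 0.0541 (SD, n = 12) for input. NEIL1, a glycosylase that removes oxidised bases including products of further oxidation of OG, had an input level of 2.25 ± 0.191. Its promoter, taken from RefSeq on GRCh38.p14 (chr15:75347585-75347884, plus strand), is shown because the gene acts in the same repair pathway and its GC content is among the highest in the list. Capitals mark runs of at least 3 G or 3 C.
NEIL1 promoter: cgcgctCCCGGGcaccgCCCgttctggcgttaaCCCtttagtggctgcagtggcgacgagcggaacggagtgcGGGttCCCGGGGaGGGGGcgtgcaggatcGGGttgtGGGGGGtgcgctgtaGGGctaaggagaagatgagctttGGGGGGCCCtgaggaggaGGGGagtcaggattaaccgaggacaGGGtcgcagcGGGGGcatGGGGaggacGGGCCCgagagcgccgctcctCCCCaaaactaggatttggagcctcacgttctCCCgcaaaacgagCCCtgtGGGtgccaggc
The bins of this promoter had a value of 23.6 ± 19.8 (SD, n = 12) at an input level of 1.65, a spread almost as wide as the mean.

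Over the whole of NEIL1 (chr15:75346955-75357115, plus strand, 12 bins, 57.2% GC), the value per bin was 21.1, 26.6 and 27.8 reads in WT, 46.0, 25.2 and 27.1 in MUTYH-/-, 42.7, 41.3 and 43.4 in OGG1-/-, and 23.9, 40.3 and 28.1 in DKO. The OGG1-/- columns were above all WT columns, and those of MUTYH-/- and DKO overlapped with WT. A difference between genotypes over this gene was not tested on its own, and the mean value on the rest of the chromosome was higher in OGG1-/- too, as given above.

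POLG had 16.4, 15.3 and 18.9 reads per bin in WT, 30.7, 15 and 21.4 in MUTYH-/-, 21.0, 27.6 and 35.6 in OGG1-/-, and 19.7, 31.3 and 25.9 in DKO, at an input level of 2.19 ± 0.113 (SD, n = 12). In these reads MUTYH-/- overlapped with WT, whereas OGG1-/- and DKO did not. The mean value on the rest of the chromosome was also higher in OGG1-/- and DKO, at 9.38 and 9.33 reads against 7.67 in WT. A difference between genotypes over POLG was not tested on its own. PIF1, a helicase that unwinds G-quadruplex DNA, had the highest value of this list, with 3.79 times the rest of the chromosome at 54.9% GC and an input level of 2.3. USP3, which removes ubiquitin from histones, had the lowest between the limits, with 1.75 times at 38.6% GC and an input level of 2.13. FANCI, at 40.4% GC, had 2.04 times for the value and 2.01 for input. Across the 13 genes, the value went with GC content with r = 0.836, as a description.

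Genes of oxidative metabolism and redox reactions numbered 10, all between the limits, with medians of 2.2 for input and 2.69 for the value. CYP1A1, which oxidises polycyclic hydrocarbons, had the highest value, 3.84 times the rest of the chromosome at 51.8% GC. MTHFS, an enzyme of folate metabolism, had the lowest, 1.77 times at 40.4% GC, with input at 2.41 and 1.89. PKM, the last enzyme of glycolysis, had 3.04 times for the value and 2.23 for input. NOX5, an NADPH oxidase that makes superoxide, had 2.18 and 1.99.

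The nicotinic receptor cluster, CHRNA5, CHRNA3 and CHRNB4, whose products form acetylcholine-gated channels, had input levels of 2.08, 2.16 and 2.2 and values of 2.27, 2.68 and 2.72 times the rest of the chromosome. Among 10 genes of signalling and growth, the medians were 2.08 for input and 2.46 for the value. MAP2K1, a kinase of the ERK pathway, had 2.26 and 2.66, SMAD3, which carries TGF-beta signals to the nucleus, 2.27 and 2.91, and NTRK3, a neurotrophin receptor, 1.93 and 2.25. RORA, across the limit, had 1.54 and 1.58 over its whole length. Of the 36 genes, the value was below the input level in USP3, MTHFS, MAP2K5 and AKAP13, which had 38.6, 40.4, 39.7 and 40% GC.

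**Figure D5:**
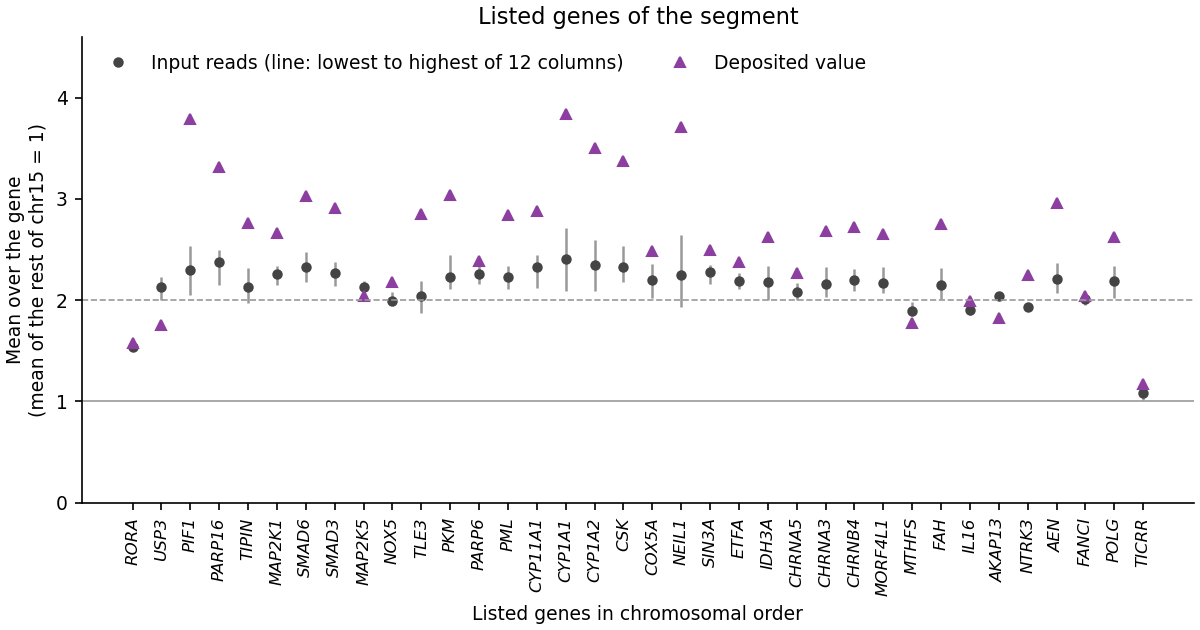
Input level (circles, with a line from the lowest to the highest of 12 columns) and deposited value (triangles) over 36 listed genes in chromosomal order, each relative to the mean of the rest of chromosome 15. The lines mark 1 and 2. The first gene, RORA, lies between the levels and the last, TICRR, near 1, and the others have input levels from 1.89 to 2.41 and values from 1.75 to 3.84.

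A bin was counted as OG-enriched (OG-EB) when 2 or more of the 3 columns of a genotype had it in their highest 5% of values. The study uses the term for bins ranked on the log2 ratio of OG to input, whereas the ranks here are of the subtracted value. It also required a bin in both technical replicates and joined adjoining bins, neither of which was done here. The counts below, also those on the ratio, are therefore not the study's OG-EBs. In WT, 6303 segment bins (21.3%) were OG-EBs, against 1.34% of all bins. MUTYH-/- had 6230 (21.1%, against 1.33%), OGG1-/- 7354 (24.9%, against 1.54%) and DKO 6125 (20.7%, against 1.30%). On the rest of chromosome 15 the shares were 1.08, 1.01, 1.09 and 1.00%. The segment thus supplied 16.5 to 16.8% of all OG-EBs of a genotype. Ranked on the log2 ratio of recovered OG to input reads, it had 49 to 74 such bins, or 0.2 to 0.277% of all of a genotype, which is below its share of all bins (1.04%). Of the 888 bins that were OG-EBs in every genotype, 527 (59.3%) were in the segment, which is 1.78% of its bins. A total of 15601 segment bins (52.8%) were OG-EBs in at least 1 genotype, against 135242 of all 2835235 bins and 6.84% of the bins of the interval beside the located limits.

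In single columns, 23.1 to 31.5% of the segment bins and 4.57 to 5.01% of those on the rest of the chromosome were in the highest 5% of their column. The log2 ratio of these shares was 2.53 ± 0.15 (SD, n = 12; exact two-sided sign-flip permutation p = 0.000488). The ranks are of the same values that were higher in the segment in every column, so that this p-value is not separate support. Ranking by OG over input reads turned the direction, with 1.2 to 2.01% of the segment bins and 4.86 to 5.51% of the rest (log2 ratio of the shares -1.64). With the segment values divided by the ratio of segment to rest, 0.852 to 2.04% of its bins passed (log2 ratio -2.26). Bins between the limits held more reads and had a narrower ratio. The SD of log2 OG over input reads was 0.417 between the limits and 0.586 on the rest of the chromosome, and values below 0 made up 13.4 and 23.7% of the bins, as medians over columns.

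The highest bins among those enriched in every genotype had more input than a doubling gives. The bin at 85193001, in an intron of ENSG00000291210, had a mean value of 69.6 reads and an input level of 3.38. Bins at 84198001, 84196001 and 84199001 had 69.1, 67.3 and 66.5 reads at input levels of 4.35, 3.37 and 3.51, and they lie close together. The bin at 88856001 overlaps an exon of ACAN, which encodes the cartilage proteoglycan aggrecan, and had 62.9 reads at an input level of 2.63. It was also the only one of the 5 near the input level of the segment. Over all columns, OG reads per input read in these bins were 1.19 to 1.44, against 0.98 on the rest of chromosome 15. The bins were chosen by OG reads minus scaled input, so that a raised ratio is built into the choice. They also have 55.9 to 62.5% GC, and the reference was not matched for GC content.

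Single columns differed widely in these bins. At 84198001 the value was 58.8, 34.2 and 116 reads in WT, 127, 57.1 and 60.7 in MUTYH-/-, 36.5, 105 and 36.2 in OGG1-/-, and 20.4, 94.9 and 83.4 in DKO. At ACAN it was 36.1, 103 and 13.3 in WT, 48.8, 90.3 and 73.5 in MUTYH-/-, 80.4, 50.9 and 93.6 in OGG1-/-, and 66.7, 45.1 and 52.9 in DKO. The genotypes overlapped in both.

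Sequences able to fold into G-quadruplexes were counted as 4 runs of GGG or longer with 1 to 7 bases of any kind (N) between them, on either strand. The bin at 84199001 holds 2 such matches. The sequence around the longer of them is shown because the bin was enriched in every genotype. Capitals mark the match, which reads as runs of C because the motif is on the minus strand.
chr15:84199797-84199893, plus strand: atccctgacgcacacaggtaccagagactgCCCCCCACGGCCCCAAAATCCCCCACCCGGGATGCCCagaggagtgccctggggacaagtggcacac
Of the bins between the limits 13.6% held the motif, against 8.83% on the rest of chromosome 15. Among segment bins it was 22% of the 527 enriched in every genotype and 10.1% of the 13968 enriched in none. Their mean GC content was 52.4 and 40.3%, and their input levels were 2.35 and 1.87.

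Within classes of equal GC content between the limits, bins with the motif did not have more OG per input read. The mean log2 difference, with minus without, was below 0 in each class. It was -0.0087 ± 0.021 (SD, n = 12) at 40 to 45% GC and -0.014 ± 0.017 at 45 to 50%, above 0 in 6 and 2 of 12 columns. It was -0.015 ± 0.017 at 50 to 55% and -0.031 ± 0.029 at 55 to 60%, above 0 in 3 and 1 of 12 columns. Of 221 promoters of protein-coding genes in the interval in the RefSeq table, 41.6% held the motif, and the NEIL1 promoter shown above was one of them. Of all 27305 promoters of the same length, 24.1% held it. The larger set was not limited to protein-coding genes or matched for GC content, so the shares are not of like sets.

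Between genotypes, the ratio of segment to rest differed little. For input, 79.9% of the spread of the log2 ratio over 12 columns lay between the 4 genotypes (exact permutation test over all 15400 groupings of the columns, p = 0.00526, or 0.021 with Benjamini-Hochberg adjustment over 4 measures). WT had 2.05 ± 0.00608 (SD, n = 3), MUTYH-/- 2.02 ± 0.00865, OGG1-/- 2.03 ± 0.018 and DKO 2.001 ± 0.00495. All DKO columns and all MUTYH-/- columns were below all WT columns, with log2 differences of -0.035 and -0.018. Each had an exact two-sided permutation p of 0.1, the smallest that 3 columns against 3 allow (adjusted over 3 knockouts, 0.15). OGG1-/- fell by 0.014 (exact permutation p = 0.3).

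With the rest of the chromosome weighted to the GC content of the segment, DKO had an input ratio of 1.97 ± 0.00779 (SD, n = 3) and the others 1.99. The share of spread between genotypes was then 72.9% (exact permutation p = 0.0114). Clone, culture and sequencing batch were not assigned to columns, and their part in this difference was not tested. The permutation test treats the columns as independent, although columns of a genotype share clones. For OG reads 58.8% of the spread lay between genotypes (exact permutation p = 0.0432, adjusted 0.0864). With GC weighting this was 56% (exact permutation p = 0.0114, adjusted 0.0228), so that the call after adjustment depended on the weighting. The values were 26.1% for the deposited value (p = 0.499, exact) and 23.4% for OG per input read (p = 0.578, exact).

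The knockouts were compared with the same 3 WT columns also in windows and in bins, with limma on log2(value + 1). In 100 kb windows none of the 292 segment windows passed an adjusted p of 0.05 in any knockout. The background over all 28140 windows was 0% in MUTYH-/-, 0.00355% in OGG1-/- and 0% in DKO. An unadjusted p under 0.05 was found in 3 segment windows in MUTYH-/-, 5 in OGG1-/- and 2 in DKO, by the same limma fit. These are 1.03, 1.71 and 0.685% of the segment windows, below the 3.33, 4.62 and 4.32% over all windows. The median log2 fold change over segment windows was -0.0027 in MUTYH-/-, 0.057 in OGG1-/- and -0.041 in DKO, with a median SE of 0.19. No change of the segment by genotype was detectable at this size.

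In 1 kb bins, 29506 of the segment bins could be tested. With an unadjusted limma p no higher than 0.01 and a log2 fold change over 0.5 in size, 553 were higher in MUTYH-/- (1.87%, background 0.3%) and 617 lower (2.09%, background 0.322%). In OGG1-/- 632 were higher (2.14%, background 0.299%) and 421 lower (1.43%, background 0.256%). In DKO 519 were higher (1.76%, background 0.296%) and 713 lower (2.42%, background 0.312%). The shares were above the background in both directions and in every knockout, and on the rest of the chromosome they were 0.236 to 0.325%.

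The fit gave each bin the variance of its level, and in the segment the observed residual variance was 1.44 times that variance, against 0.952 times over all bins. Without the filter on low bins, the fit also weighed in the variance of each bin, the observed variance was 1.16 times the model's, and the shares in the segment were 0.585 to 0.839%, against 0.474 to 0.569% over all bins. That alternative changed both the bins tested and the weight of the variances, and the part of either in the shares was not tested.

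With adjustment over all bins, 1 segment bin passed in MUTYH-/- (background 0.0005%), 1 in OGG1-/- (background 0.00025%) and 3 in DKO (background 0.00139%), at a limma adjusted p under 0.05. In MUTYH-/- it was an exon bin of ITGA11, an integrin subunit that binds collagen (chr15:68312001-68313000), lower by a log2 fold change of -2.95 ± 0.52 (SE; limma adjusted p = 0.00293). WT had 38.0, 92.2 and 72.4 reads there and MUTYH-/- 29.6, -1.75 and 30.5, and the groups did not overlap. The size of the fold change rests mostly on column 2 of MUTYH-/-, whose value below 0 was set to 0 for the fit. In OGG1-/- it was an intron bin of MEGF11, a protein with EGF-like repeats (chr15:65910001-65911000), higher by 2.95 ± 0.56 (limma adjusted p = 0.0423). WT had -4.98, 14.2 and 35.4 reads and OGG1-/- 61.0, 90.5 and 65.1, again without overlap, and WT column 1 was set to 0 in the same way.

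The 3 bins of DKO were lower than in WT. At chr15:77953001-77954000, with no gene, DKO had -20.0, -5.84 and 63.4 reads and WT 34.2, 50.9 and 92.2, and the groups overlapped (log2 fold change -4.06, limma adjusted p = 0.00475). At chr15:84186001-84187000, in the long non-coding RNA ENSG00000290688, DKO had -1.1, 72.5 and 59.1 reads and WT 58.3, 83.3 and 68.6 (-2.41, limma adjusted p = 0.000418), so that the call rests on DKO column 1. At chr15:85876001-85877000, with no gene, DKO had 0.0482, 1.31 and 21.5 reads and WT 38.1, 69.3 and 41.4, without overlap (-3.98, limma adjusted p = 0.0474). The first and the second had input levels of 3.44 and 3.74. All 5 calls were lost with a pseudocount of 5.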

How the data were processed

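HAP1 cells of 4 genotypes were measured by OG-seq, with 3 columns each in a table of 1 kb bins on GRCh38. The deposited values are a score per bin: per the submitters' processing notes and the study's methods, the authors trimmed adapters (cutadapt 2.8), mapped reads with Bowtie2 2.3.5.1, marked duplicates with SAMtools, counted reads with bedtools, dropped blacklisted bins and subtracted input reads, scaled by signal extraction scaling, from OG reads. Their edgeR comparison was not used, since the values are not counts. Column totals reached 59601849 to 113915679 OG reads. The number of columns with no sample was 0. Column numbers are not tied to clones, so p-values measure the spread between columns, which may be technical.

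OG reads and 2 sets of input reads per column were solved as whole numbers from the scaled values with Python 3.11.15, numpy 2.4.6, numba 0.67.0 and pandas 2.3.3. The 2 sets and their factors were inferred from the values and are not stated in the labels. The sign-flip test, the permutation test over 4 groups and the linear model of 100 kb windows were tested on simulated data. The linear model of 1 kb bins was not. limma 3.58.1 (R 4.3.3) was fitted with a trend to all windows or bins at once, on log2(value + 1) after scaling columns to the mean total, with values below 0 set to 0 and bins above 0 in at least 3 columns; p-values were adjusted by Benjamini-Hochberg over all features. Limits were the split of least squared error. GC content came from GRCh38 and genes from GENCODE 44. Named genes were those in the windows of either limit, 4 lists of genes from textbook knowledge, the 3 highest and lowest windows, the 5 highest bins enriched in every genotype, and bins with an adjusted p under 0.05; the lowest windows between the limits and the short genes under 1.5 were named after their values were seen. The members and lists were chosen with earlier results of these data known. Alternatives changed the reference, GC weighting, limits, window size, percentile, pseudocount, scaling and filter, and left out columns.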

Additional observations from a re-analysis of the deposited data

Results flagged for a closer look

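The input ratio of the segment to the rest of chromosome 15 differed between genotypes more than within them: 79.9% of its spread over 12 columns lay between the 4 genotypes (exact permutation test over 15400 groupings, p = 0.00526, adjusted over 4 measures 0.021). The ratio ranged from 1.997 in DKO to 2.055 in WT, so that the whole spread is small beside the doubling. Columns of a genotype share clones, and the DKO clones share an OGG1-/- parent, whereas the test treats the columns as independent. No explanation was tested.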

How the results depend on the processing

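Of 268 values of 36 results under alternatives, 213 kept their direction and their side of the threshold or size, 38 moved and 17 reversed. The doubling of input, OG reads and value, and both limits as medians over columns, were among the former under every alternative run. No paired analysis was possible because the column numbers are not tied to the replicate or clone numbers in the labels.

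The log2 difference in OG per input read (0.040) became -0.00033 with GC weighting and -0.00040 between the limits with GC weighting. For the log2 ratio of OG reads, OGG1-/- minus WT (-0.0013) became 0.0033 and 0.0037 under these, and MUTYH-/- minus WT (-0.016) became 6.2e-06 under the second. For input, OGG1-/- minus WT (-0.014) became 0.00034 and 0.00024. DKO minus WT in the value ratio (-0.063) was 1.28 reads as a difference of means.

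With 1 column number at a time left out of every genotype, the value ratio of MUTYH-/- minus WT was -0.029 to 0.042. That of DKO minus WT was -0.14 to 0.019, above 0 only without the columns numbered 1. OGG1-/- minus WT in OG reads was -0.012 to 0.0086. For OG per input read, MUTYH-/- minus WT was -0.0033 to 0.010, OGG1-/- minus WT -0.0026 to 0.023 and DKO minus WT -0.034 to 0.0090.

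The log2 ratio of the shares in the top 5% (2.53) became -1.64 on the OG to input ratio and -2.26 after division by the segment ratio. The mean share of OG-EBs in the segment (22%) became 6.75% at the 99th percentile and 4.33% with 3 of 3 columns. On the OG to input ratio it was 0.202%, and after the division 0.122%. Without 1 column number it was 10.1 to 10.4%, where both remaining columns had to pass.

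For 1 kb bins at p of at most 0.01, a pseudocount of 5 gave 354 higher bins in MUTYH-/- and 343 in DKO. Without scaling, lower bins were 373 in MUTYH-/- and higher and lower bins were 979 and 207 in OGG1-/- and 812 and 389 in DKO. Without the filter, higher and lower bins were 181 and 224, 193 and 173, and 174 and 248 in MUTYH-/-, OGG1-/- and DKO. Without 1 column number, lower bins were 603 to 970 in MUTYH-/- and 458 to 650 in OGG1-/-, and higher bins in DKO 531 to 830. Bins with an adjusted p under 0.05 were 1, 1 and 3 in MUTYH-/-, OGG1-/- and DKO. They were 0, 0 and 0 with a pseudocount of 5, 0, 2 and 0 without scaling, and 3, 2 and 2 without the filter. Without 1 column number they were 1 to 6, 0 to 3 and 2 to 8. The cause of these moves was not tested. Single bins, at 21.0 to 40.2 OG reads, limit the calls per bin.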
